A study of Mus musculus with 4 samples.

Results

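The 9 long noncoding RNAs (lncRNAs) described here were chosen by symbol from a table of 50600 genes: the nuclear RNAs Malat1, Neat1 and Kcnq1ot1 and the small nucleolar RNA (snoRNA) hosts Gas5, Snhg1, Snhg3, Snhg6, Snhg8 and Snhg12. All 9 members were found and all 9 passed the filter on low counts. The libraries were made from colonic epithelial cells taken directly from C57BL/6 mice, and 2 were labelled Mettl14 wild type (WT) and 2 Mettl14 knockout (KO). No treatment is named for either genotype. The promoter or Cre driver behind the deletion, the age of the mice, and whether a library pooled animals are not stated in words by the labels. All 4 sample titles end in the same code, which the labels do not explain and which could stand for an age or a time, and it was not used.

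Mettl14 is the RNA-binding partner of Mettl3 in the complex that methylates adenosine (m6A) in nascent RNA, mostly within GGAC-like sequences. Malat1 is an unspliced RNA that gathers at nuclear speckles, where splicing factors are stored, and it carries well-mapped m6A. Neat1 is the scaffold of paraspeckles, and its gene makes a short polyadenylated form and a long form that shares the start of the short one. Kcnq1ot1 is an unspliced antisense RNA of the Kcnq1 gene, made from the paternal chromosome, that silences neighbouring imprinted genes. The snoRNA hosts are spliced RNAs whose introns release snoRNAs, the guides for chemical modification of ribosomal RNA. Their exons code for no known protein in most cases, and the spliced RNAs are textbook targets of nonsense-mediated decay, which destroys RNAs with early stop codons during translation.

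The GGACT pentamer, the commonest form of the m6A consensus, was searched on the transcribed strand of each longest annotated transcript. Malat1 (6983 bases) held 9 and Neat1 (20771 bases) held 23, which is 1.29 and 1.11 per kb. The median over 13927 tested genes with a transcript of at least 1000 bases was 1.03 per kb, and 65.4% and 54.8% of those genes had a density at or below that of Malat1 and Neat1. The first 4 sites of Malat1, and the first 4 of Neat1, where the short and long forms overlap, are shown with the pentamer in capitals (GENCODE M21 transcripts, GRCm38, minus strand, written 5′ to 3′).
Malat1 at chr19:5801549-5801573: aaagctactaGGACTgaagtaaaaa
Malat1 at chr19:5801455-5801479: gatgacaaaaGGACTtttgataaca
Malat1 at chr19:5801413-5801437: attttgcattGGACTtgagctgagg
Malat1 at chr19:5801273-5801297: aagctaggaaGGACTgaggagccag
Neat1 at chr19:5845118-5845142: ggagacgggtGGACTgggggccctt
Neat1 at chr19:5845065-5845089: cagtggggcaGGACTaggtgcgtag
Neat1 at chr19:5844950-5844974: tatggaaggtGGACTtagcttcgct
Neat1 at chr19:5844727-5844751: tgccctctctGGACTttgcctaggt
The short form of Neat1 (3170 bases) held 6 of the 23, a density of 1.89 per kb against 0.966 per kb in the rest. Kcnq1ot1 held 80 in 93092 bases (0.859 per kb), Gas5 3, Snhg1, Snhg6 and Snhg8 1 each, and Snhg3 and Snhg12 0. The longest annotated transcript of a host can hold retained introns (2556 bases for Gas5 and 2728 for Snhg1). Its matches therefore need not lie in the spliced RNA. A match is a run of letters and not a measured methylation site.

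**Figure D1:**
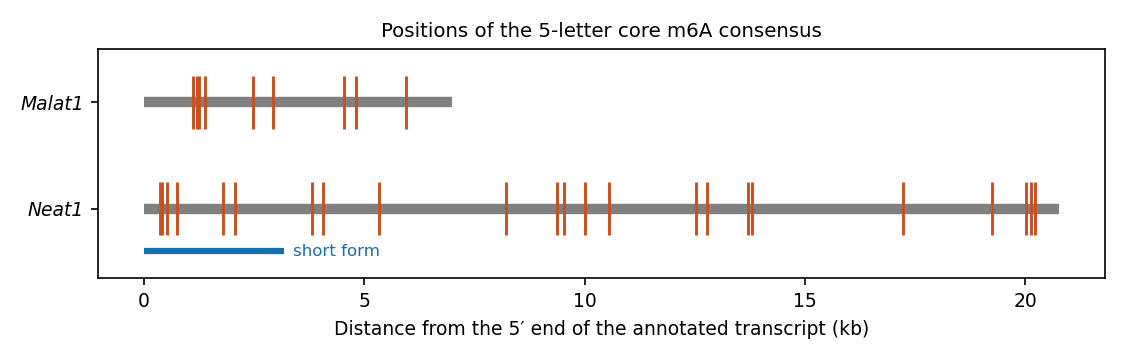
Positions of the GGACT pentamer (orange ticks) along the annotated Malat1 and Neat1 transcripts (grey bars), as distance from the 5′ end in kb, with the short form of Neat1 in blue. Malat1 has 9 ticks and Neat1 23, of which 6 lie in the short form.

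Library totals ran from 22136440 to 24991060 counts, and transcripts of the mitochondrial genome took 28.6% to 33.8% of them, with overlapping ranges in the genotypes. Mettl14 itself was at 11.7 and 8.67 CPM (counts scaled to library size and TMM factor) in WT and 3.99 and 3.94 CPM in KO, so no library went against its label, although its edgeR adjusted p was 0.0504. Judged by Xist and Y-linked genes, each genotype held 1 male library (WT replicate 1, KO replicate 2) and 1 female library. Epithelial markers such as Epcam and Krt8 were abundant in every library, at a summed 7754 to 10959.9 CPM for the 10 listed. Markers of other cells were also present: summed fibroblast markers stood at 77.9, 106, 103 and 610 CPM (WT replicates 1 and 2, then KO replicates 1 and 2) and macrophage markers at 63.0, 90.3, 162 and 147 CPM. Over all 14861 genes tested, edgeR called 255 higher and 282 lower in KO at an adjusted p under 0.05, which is 1.72% and 1.90%.

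The comparison of KO with WT asked which of these RNAs differ in level when Mettl14 is deleted. Neat1 fell to about 32.7% of its WT level, and Malat1, on the same chromosome 22036 bases away, stood at 48.0% of its WT level without passing the threshold. Kcnq1ot1 and the 6 snoRNA hosts lay closer to their WT levels, at 82.9% to 154%, and none of them was called. Of the 9 members, edgeR thus called 1 lower and 0 higher, against 1.90% and 1.72% of all genes. At an unadjusted p under 0.05 there were 2 lower and 1 higher, against 15.7% and 14.8% of all genes. The genotypes did not overlap for 4 of the 9 members, against 63.3% of all genes. DESeq2 and the edgeR fit with sex as a covariate each called 2 members lower and 0 higher, where they called 6.55% and 4.80% of all genes lower and 6.39% and 4.68% higher.

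**Figure D2:**
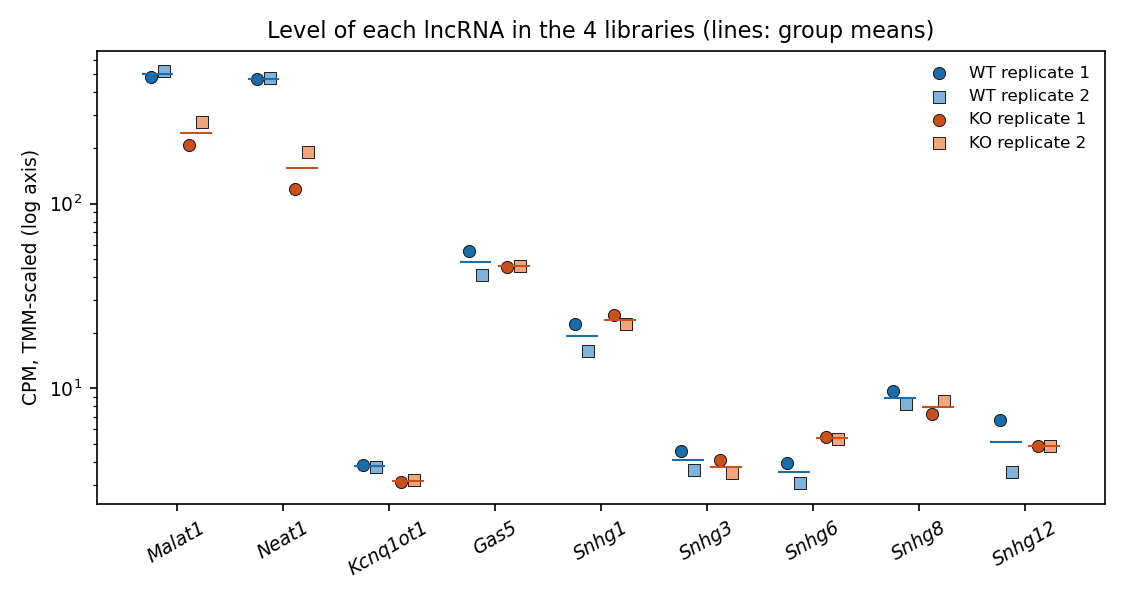
Level of each lncRNA in each library, in CPM after TMM scaling on a log axis (circles and squares: replicates 1 and 2; blue: WT; orange: KO; lines: group means). Malat1 and Neat1 lie lower in KO, whereas WT and KO points interleave for Gas5, Snhg1, Snhg3, Snhg8 and Snhg12.

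Neat1 (ENSMUSG00000092274, chromosome 19, 5824708 to 5845478, minus strand, GRCm38) had 9763 and 11387 counts in WT against 2708 and 4890 in KO. Scaled, these were 470.4 and 479 CPM in WT against 120.1 and 191 CPM in KO. Both KO libraries lay far below both WT libraries, and the KO libraries differed from each other more than the WT libraries did. Group means were 475 ± 6.26 CPM (WT) and 155 ± 49.8 CPM (KO; SD, n = 2). The log2 fold change was -1.61 (SE 0.25, 95% interval -2.28 to -0.95), and edgeR's adjusted p was 0.0499. Only 1.59% of all genes tested had a log2 fold change as low or lower. The adjusted p stood next to the threshold, and the call ended in 6 of 15 alternatives: it was 0.057 without WT replicate 1, 0.29 without KO replicate 1 and 0.378 without KO replicate 2, and 0.0483 without WT replicate 2. The log2 fold change over those 4 omissions ran from -1.96 to -1.33. The table gives 1 count per gene, so the short form and the long form, which alone builds paraspeckles, were not told apart.

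Malat1 (ENSMUSG00000092341, chromosome 19, 5795690 to 5802672, minus strand) had 10035 and 12345 counts in WT and 4659 and 7050 in KO. These were 483 and 519.5 CPM in WT against 207 and 275 CPM in KO. The genotypes did not overlap, and KO replicate 1 was again the lowest library. The means were 501 ± 25.5 and 241 ± 48.2 CPM (SD, n = 2). The log2 fold change was -1.06 (SE 0.19, 95% interval -1.55 to -0.57). The edgeR adjusted p of 0.0537 missed the threshold, and 4.80% of genes had a log2 fold change as low or lower. Malat1 was called lower in 5 of 15 alternatives, among them DESeq2 (adjusted p = 3.73e-05) and the fit with sex as a covariate (edgeR adjusted p = 0.0364). The 5 include the fits without WT replicate 1 and without WT replicate 2, but not those without KO replicate 1 or KO replicate 2. With 1 library left out, its log2 fold change ran from -1.26 to -0.88. Groups that do not overlap are common here: for 32.2% of all genes the higher KO library lay below the lower WT library.

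The KO to WT ratio was lower in the female than in the male pair for both RNAs, with 1 library of each sex per genotype. Neat1 in KO stood at 40.5% of WT in the male pair and 25.1% in the female pair, and Malat1 at 56.8% and 39.8%. Both RNAs thus lay below WT in each pair. The difference between the pairs has no replicates and was not tested.

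Within a library, Neat1 was also lower relative to Malat1 in KO. The ratio of Neat1 to Malat1 CPM was 0.973 and 0.922 in WT against 0.581 and 0.694 in KO. The genotypes did not overlap, but with 2 libraries against 2 the exact two-sided permutation p was 0.333, the smallest that this design allows. Together the pair took 0.0894% and 0.0950% of all counts in WT and 0.0324% and 0.0524% in KO. They were the first and second most abundant by mean CPM of 774 tested genes with a long noncoding gene type in GENCODE M21.

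Markers of other cells also differed between the libraries. All 8 macrophage and monocyte markers had a positive log2 fold change, and 2 of them, Itgam and C1qa, were called higher. All 7 fibroblast markers were positive with none called, and 8 of 10 epithelial markers were negative with none called. Of all genes tested, edgeR called 1.72% higher and 1.90% lower, and 51.0% had a negative log2 fold change. At edgeR's unadjusted p under 0.05, 6 macrophage, 2 fibroblast and 1 epithelial marker were higher, against 14.8% of all genes. In the lower direction there were 0, 0 and 3, against 15.7% of all genes. Erythroid markers stood at a summed 1976, 2736, 1353 and 6681 CPM. The macrophage sum was highest in KO replicate 1, the library in which Malat1 and Neat1 were lowest, whereas the fibroblast and erythroid sums were highest in KO replicate 2. The part of these cells in the result was not tested, and in bulk RNA fewer cells of a type cannot be told from less RNA per cell.

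Poly(A) selection bears on both RNAs. Per the labels' protocols, mRNA was captured with oligo-dT beads, whereas mature Malat1 ends in a triple helix in place of a poly(A) tail and the long form of Neat1 has no poly(A) tail. The longest run of A in the annotated Malat1 transcript lies 298 bases before its annotated end and is shown in capitals. The annotated end need not be the mature end, which was not mapped here. The place of the run relative to the triple helix was therefore not examined. Whether oligo-dT bound the run was not tested.
Malat1 at chr19:5795980-5796007: ctagctttAAAAAAAAAAAAgcaaaaga
This run has 12 A, the only run of 8 or more in Malat1, and the longest run in Neat1 has 7. Whether capture differed between the libraries was not tested.

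**Figure D3:**
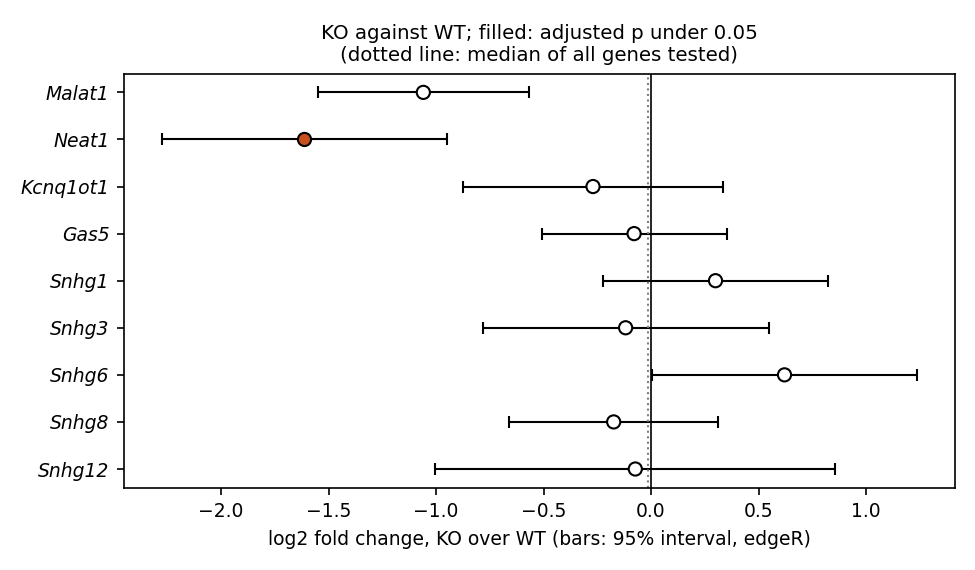
Log2 fold change of each lncRNA, KO over WT, with its 95% interval from edgeR; the filled point had an adjusted p under 0.05 and the dotted line is the median of all genes tested (-0.01). The intervals of Neat1 (-2.28 to -0.95) and Malat1 (-1.55 to -0.57) lie below 0, and those of 6 of the other 7 include 0.

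Kcnq1ot1 (ENSMUSG00000101609, chromosome 7, 143203458 to 143296549, minus strand) had 80 and 89 counts in WT and 70 and 82 in KO. These were 3.85 and 3.75 CPM in WT and 3.10 and 3.20 CPM in KO, a small gap without overlap. The log2 fold change was -0.27 (SE 0.23, 95% interval -0.87 to 0.33, edgeR adjusted p = 0.468), so a fall to about the ratio of Malat1 lay outside the interval, but a smaller change in either direction did not. With at most 89 counts per library, the counting error alone spans 3.06 to 4.80 CPM in WT replicate 1. Kcnq1, which encodes a potassium channel subunit of epithelia and heart and overlaps Kcnq1ot1 on the other strand, was at 18.4 ± 2.33 CPM (WT) and 31.7 ± 0.924 CPM (KO; SD, n = 2), a log2 difference of 0.79 with an edgeR adjusted p of 0.0518, and it was called higher in 8 of 15 alternatives. Strand use in the counting is not given in the sources used here, so it is not known to which of the overlapping pair their shared reads went.

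Among 12 genes of the Kcnq1 imprinted domain and its flanks, 1 was called lower and 0 higher, against 1.90% and 1.72% of all genes. At edgeR's unadjusted p under 0.05, 3 were higher and 2 lower, against 14.8% and 15.7% of all genes. The 1 called lower was Slc22a18, an organic cation transporter gene of the domain. It fell from 56.7 ± 2.27 to 32.8 ± 3.96 CPM (SD, n = 2, log2 fold change -0.79, edgeR adjusted p = 0.0484). That call held in 10 of 15 alternatives and ended without KO replicate 1 and without KO replicate 2. Cdkn1c, the growth inhibitor gene that Kcnq1ot1 silences in other tissues, was at 30.5 ± 5.95 and 28.0 ± 0.407 CPM (log2 fold change -0.12), and Phlda2 was under 1 CPM in both groups. The median log2 fold change of the 12 was -0.06, against -0.01 for all genes tested, but it was 0.43 without WT replicate 2 and -0.19 without WT replicate 1.

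The snoRNA hosts, spliced RNAs of growing cells, were tested in the same fit with 0 called, against 3.61% of all genes. Their summed level was 103 and 75.6 CPM in WT and 92.0 and 90.6 CPM in KO, so both KO libraries lay between the WT libraries. All 6 were higher in WT replicate 1 than in WT replicate 2, and for 3 of them (Gas5, Snhg1 and Snhg12) the 95% counting intervals of the WT libraries did not overlap. For none of the 6 did the counting intervals of the KO libraries part. These intervals cover counting error only. The genotypes overlapped for 5 of the 6, whereas for 63.3% of all genes they did not overlap.

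Many snoRNA hosts begin with a TOP element, a C at the first transcribed base followed by a run of C and T, which ties translation of the RNA to growth signals. The first bases of the hosts are therefore shown, with the first 5 transcribed bases in capitals (RefSeq, GRCm38.p6; 15 bases before the start, written 5′ to 3′ on the transcribed strand). Of the 9 members, 7 had an entry, and Neat1 and Snhg6 had none.
Gas5 at chr1:161035151-161035190, plus strand: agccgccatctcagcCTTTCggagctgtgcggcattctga
Snhg8 at chr3:123508312-123508351, minus strand: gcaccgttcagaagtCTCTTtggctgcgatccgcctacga
Snhg12 at chr4:132308663-132308702, plus strand: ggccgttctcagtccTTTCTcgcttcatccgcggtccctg
Snhg1 at chr19:8723472-8723511, plus strand: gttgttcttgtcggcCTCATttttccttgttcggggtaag
Snhg3 at chr4:132353662-132353701, minus strand: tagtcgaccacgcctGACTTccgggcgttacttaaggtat
A C followed by 4 letters that are each C or T, on the transcribed strand, stood at the annotated start of Gas5 (1 of its 2 starts) and Snhg8, and within 3 bases of the start of Snhg12 and Snhg3. It was at the start of 3.01% of 27025 genes and of 22.6% of 62 cytosolic ribosomal protein genes, and within 3 bases in 13.5% and 41.9%. The host Snhg1, as well as Malat1 and Kcnq1ot1, lacked it in both windows.

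Gas5, the most abundant host here, whose introns hold 10 annotated snoRNA genes, had 1152 and 981 counts in WT and 1027 and 1182 in KO. These were 55.5 and 41.3 CPM in WT and 45.5 and 46.1 CPM in KO. The KO libraries lay between the WT libraries (48.4 ± 10.05 against 45.8 ± 0.371 CPM, SD, n = 2), and the log2 fold change was -0.08 (SE 0.16, 95% interval -0.51 to 0.35, edgeR adjusted p = 0.775). Its sign turned to 0.14 without WT replicate 1.

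Snhg1, the host of 8 annotated snoRNA genes, was at 22.4 and 15.9 CPM in WT and 24.8 and 22.3 CPM in KO. The genotypes overlapped, since WT replicate 1 lay between the KO libraries. The log2 fold change was 0.30 (SE 0.20, 95% interval -0.22 to 0.82, edgeR adjusted p = 0.359), and it was 0.56 without WT replicate 1 and 0.10 without WT replicate 2. Slc3a2, the heavy chain of amino acid exchangers, lies 106 bases from Snhg1, and it was at 159 ± 22.6 CPM (WT) and 96.3 ± 6.31 CPM (KO; SD, n = 2; log2 fold change -0.72, edgeR adjusted p = 0.0627).

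Snhg6 was the 1 host whose genotypes did not overlap, at 3.95 and 3.07 CPM in WT and 5.45 and 5.34 CPM in KO. Both KO libraries were higher, as for 31.1% of all genes. The log2 fold change was 0.62 (SE 0.24, 95% interval 0.0047 to 1.24), with an unadjusted p of 0.0489 and an edgeR adjusted p of 0.162. It was called in 0 of 15 alternatives, over which its log2 fold change ran from 0.48 to 0.80. It rests on 73 to 137 counts per library.

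Snhg8, whose single annotated snoRNA gene is Snora24, was at 9.64 and 8.21 CPM in WT and 7.23 and 8.57 CPM in KO (log2 fold change -0.17, 95% interval -0.66 to 0.31). Snhg3, the host of the Snora73 pair, was at 4.58 and 3.62 CPM in WT and 4.08 and 3.47 CPM in KO (-0.12, 95% interval -0.78 to 0.55). Snhg12 was at 6.74 and 3.54 CPM in WT and 4.88 and 4.87 CPM in KO (-0.07, 95% interval -1.003 to 0.86). WT and KO interleaved for all 3. The wide interval of Snhg12 goes with its WT libraries, which stood on either side of the KO pair, and its log2 fold change was 0.45 without WT replicate 1 and -0.44 without WT replicate 2. Snhg3 overlaps Rcc1 on the same strand and the lncRNA gene Gm17300 on the other strand, so its counts are uncertain. Rcc1, a regulator of Ran in nuclear transport, was at 20.6 ± 3.34 and 21.9 ± 1.71 CPM (log2 fold change 0.09).

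The snoRNAs themselves were nearly absent from these poly(A)-selected libraries. Of 27 snoRNA genes annotated inside the 6 hosts, 22 had 0 counts in every library, which allows up to 3 counts each or 0.117 to 0.145 CPM (counting error only), and 0 had at least 10 counts in every library. The highest count was 9. The host levels are therefore those of spliced or unspliced host RNA, and snoRNA levels were not measured.

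Per kb of annotated exons, the order of the WT levels was Malat1 (71.8 ± 3.65 CPM per kb), Neat1 (22.9 ± 0.301), Gas5 (12.9 ± 2.67), Snhg8 (10.5 ± 1.18), Snhg1 (6.44 ± 1.56), Snhg3 (4.16 ± 0.687), Snhg6 (3.06 ± 0.542), Snhg12 (2.14 ± 0.945) and Kcnq1ot1 (0.0408 ± 8.26e-04; SD, n = 2). The neighbours Gas5 and Snhg8 overlapped in that order, as did Snhg6 and Snhg12. In KO, Malat1 remained first at 34.5 ± 6.90 CPM per kb, but Neat1, at a mean of 7.48, came after Gas5 (12.2 ± 0.0987), Snhg8 (9.26 ± 1.12) and Snhg1 (7.93 ± 0.614). The KO levels per kb of Neat1 (5.78 and 9.17) overlapped those of Snhg8 and Snhg1. Lengths are the union of all annotated exons, which counts the long form of Neat1 and retained introns of the hosts in full.

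**Figure D4:**
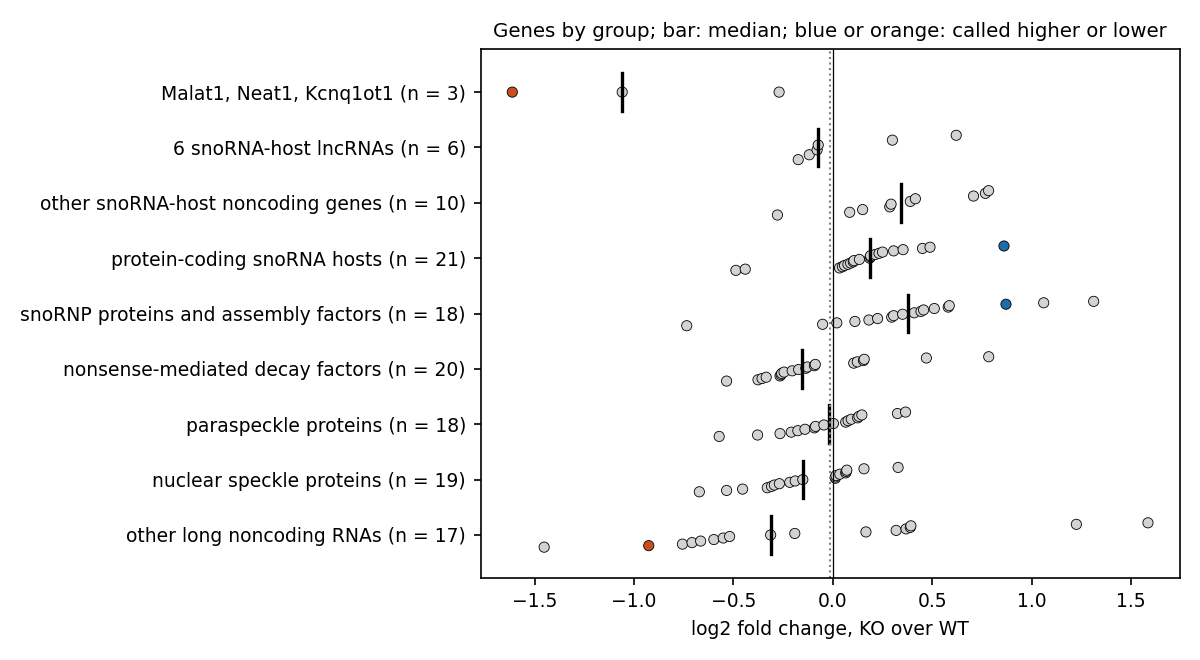
Log2 fold change, KO over WT, of each tested gene of the groups named at the left (number of genes in brackets; blue or orange: called higher or lower by edgeR; black bar: median; dotted line: median of all genes tested). The 6 snoRNA-host lncRNAs have a median of -0.08 and the other noncoding hosts one of 0.34.

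Other genes of snoRNA production were described by lists. For each list below, the shares over all genes were 14.8% higher and 15.7% lower at edgeR's unadjusted p under 0.05. At an adjusted p under 0.05, edgeR called 1.72% of all genes higher and 1.90% lower, and DESeq2 6.39% and 6.55%. Of 14 other noncoding hosts, 10 were tested, 0 were called and 2 were higher at an unadjusted p under 0.05. Their median log2 fold change was 0.34, against -0.01 for all genes, and 9 of the 10 were positive; the median was 0.65 without WT replicate 1 and 0.18 without WT replicate 2. The 2 most abundant were Zfas1, at 14.8 ± 2.81 and 15.7 ± 2.59 CPM (log2 fold change 0.08), and Snhg17, at 6.27 ± 2.79 and 10.8 ± 1.98 CPM (0.78, edgeR adjusted p = 0.221). Among 21 protein-coding hosts the median was 0.19, and 1 was called: Ncl, which encodes the nucleolar protein nucleolin, rose from 170 ± 5.59 to 308 ± 9.54 CPM (SD, n = 2; log2 fold change 0.86, edgeR adjusted p = 0.0461). The cytosolic ribosomal protein genes, many of which host snoRNAs and carry TOP elements, had a median of 0.19 over 82 genes with 0 called (11 higher and 0 lower at an unadjusted p under 0.05).

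Of 18 snoRNP proteins and assembly factors, 1 was called higher and 0 lower, with a median log2 fold change of 0.38. The 1 was Nhp2, a core protein of H/ACA snoRNPs, which rose from 11.4 ± 0.565 to 20.8 ± 1.30 CPM (SD, n = 2; log2 fold change 0.87, edgeR adjusted p = 0.0465). Gar1, another H/ACA core protein, was at 4.37 ± 0.227 and 9.12 ± 1.21 CPM (1.06, edgeR adjusted p = 0.0556), while Fbl, the methyltransferase of C/D snoRNPs, was at 23.3 ± 2.07 and 29.7 ± 1.36 CPM (0.35). Pih1d1 of the same list was lower in KO, at 18.2 ± 1.23 and 10.9 ± 0.704 CPM (-0.73, edgeR adjusted p = 0.0557). Of the 18, 16 had a positive log2 fold change and 2 a negative one. At edgeR's unadjusted p under 0.05, 7 were higher and 1 lower, against 14.8% and 15.7% of all genes. The calls of Nhp2 and Ncl each held in 13 of 15 alternatives and ended without KO replicate 1 and without KO replicate 2.

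The decay pathway that acts on host RNAs gave 0 calls among 20 nonsense-mediated decay factors (2 higher and 3 lower at an unadjusted p under 0.05; DESeq2 called 0 higher and 1 lower). Its median log2 fold change was -0.15, with Smg1 at 196 ± 37.6 and 166 ± 4.48 CPM (-0.25) and Etf1 at 68.1 ± 8.62 and 76.0 ± 1.76 CPM (0.16). With library size scaling, which moved the median of all genes to 0.15, that list median was 0.01, still below all genes.

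The genes of proteins that gather at paraspeckles and speckles had log2 fold changes between -0.67 and 0.37, smaller in size than that of Malat1. Of 18 paraspeckle proteins, edgeR and DESeq2 each called 0 (by edgeR, 1 was higher and 2 were lower at an unadjusted p under 0.05), with a median of -0.02. The most abundant was Hnrnpk, at 257 ± 6.98 and 271 ± 2.41 CPM (log2 fold change 0.08). The paraspeckle core proteins Nono and Sfpq were at 102 ± 3.06 and 98.5 ± 0.0883 CPM (-0.04) and at 111 ± 1.38 and 119 ± 0.638 CPM (0.09). Of 19 nuclear speckle proteins, 0 were called by edgeR, with a median of -0.15. By edgeR, 0 were higher and 5 lower at an unadjusted p under 0.05, against 14.8% and 15.7% of all genes. DESeq2 called 2 lower, against 6.55% of all genes. The 2 most abundant speckle proteins were Srrm2, at 362 ± 0.113 and 366 ± 40.9 CPM, and Son, at 309 ± 10.7 and 389 ± 22.2 CPM. Among 6 nuclear m6A readers and RNA binders 0 were called (0 higher and 1 lower at an unadjusted p under 0.05; DESeq2 called 0), with Hnrnpa2b1 at 329 ± 9.08 and 363 ± 7.05 CPM (0.14) and Hnrnpc at 78.8 ± 0.282 and 70.9 ± 0.839 CPM (-0.15).

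Among 17 tested of 20 other named lncRNAs, 1 was called lower and 0 higher. It was Oip5os1, a conserved RNA also called Cyrano that directs decay of the microRNA miR-7, which fell from 106 ± 16.5 to 55.9 ± 2.06 CPM (SD, n = 2; log2 fold change -0.93, edgeR adjusted p = 0.0484; called in 8 of 15 alternatives, and not without KO replicate 1 or KO replicate 2). The median over the list was -0.31, or -0.05 without KO replicate 1 and -0.57 without KO replicate 2 (log2 scale). Over all 765 tested long noncoding genes that are not members, 1.57% were called (3 higher and 9 lower) against 3.61% of all genes, and 61.6% had a negative log2 fold change against 51.0% of all genes. Their median was -0.23. This class was set by GENCODE M21 gene type alone, and it includes the mucin gene Muc19.

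Neighbouring genes were then examined. Within 100 kb of Malat1, 12 genes were tested, and Neat1 was the only one called lower, with a median log2 fold change of 0.02 for the 12. None of the 12 tested genes around Neat1 was called by edgeR, and Frmd8, 4224 bases away, was at 32.3 ± 8.06 and 28.4 ± 2.42 CPM (-0.19). Around all members, 46 genes were tested, 2 were called higher and 1 lower, against 1.72% and 1.90% of all genes. The 46 include the members Malat1, Neat1, Snhg3 and Snhg12, each near another member, and the 1 called lower was Neat1 itself. The 2 called higher were the muscarinic receptor gene Chrm1, 39888 bases from Snhg1, and the m6A reader gene Ythdf2, 96320 bases from Snhg12.

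Genes with the most similar pattern over the 4 libraries were ranked by the root mean square difference in mean-centred log2 CPM. Neat1 was followed by the ephrin gene Efna1 (0.0739) and the cytochrome P450 gene Cyp3a13 (0.115), and Malat1 by the ciliary transport gene Ift122 (0.0467) and Apol7a (0.0547). The nearest genes were Sh2b1 (0.00896) and Ap2a1 (0.00969) for Kcnq1ot1, Wdr41 (0.00906) and Dgkz (0.0106) for Gas5, and Shmt1 (0.0159) and Polr3e (0.0341) for Snhg1. They were Vps33a (0.00594) and Cog5 (0.00627) for Snhg3, Ftsj3 (0.0248) and Srm (0.0296) for Snhg6, Pigb (0.0149) and Mzt1 (0.0171) for Snhg8, and Nlrp6 (0.0347) and Slc25a23 (0.0453) for Snhg12. Between Malat1 and Neat1 the difference was 0.303, and between Gas5 and Snhg3 it was 0.0917, the smallest among the members. The measure counts the size of changes as well as their direction, so genes that vary little come out close. Malat1 and Neat1 were each above their own mean in both WT libraries and below it in both KO libraries. With 4 libraries, each of these comparisons is a description.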

How the data were processed

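The deposited table gives whole-number read counts by gene, and unequal library totals show no scaling by the authors. FastQC 0.11.2, STAR 2.4.2a, RSEM 1.2.29 and mm10 appear in the submitters' processing notes, without the step each served. Annotation release and strandedness were not given in the sources used here. Unused sample columns numbered 0. Identifiers were matched to GENCODE M21 (GRCm38), which held 99.6%. Genotype labels set the groups, and replicate numbers follow accession order only.

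Genes were kept with filterByExpr (14861 of 50600), scaled with TMM factors and tested KO against WT with edgeR 4.0.16 (quasi-likelihood F-test, legacy and robust options, R 4.3.3), two-sided, with Benjamini-Hochberg adjustment over all genes and a threshold of 0.05. Residual degrees of freedom were 2. Each title gives its library a number of its own, and the sex read from the counts differed within each genotype, but no label says in words that libraries came from separate animals, so p-values reflect only how far these samples spread. CPM are mean ± SD; log2 CPM used an offset of 0.5. Alternatives used DESeq2 1.42.0, limma-voom (limma 3.58.1), other scaling, options and filters, sex as a covariate and omission of each library.

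The members and gene lists were chosen with earlier results of these data known. Named genes are all members, called list members (up to 4) or, where a list had none, its 2 most abundant, plus called neighbours and the 2 nearest patterns. A gene that this rule takes is not reported here. Others were named after their values were seen: Kcnq1, Cdkn1c, Phlda2, Slc3a2, Rcc1, Frmd8, Gar1, Fbl, Pih1d1, Itgam, C1qa, Nono, Sfpq, H19, Meg3, Gm37376 and Gm17300. Of the list entries, Snhg10 was not analysed here, and Norad, Oip5os1 and Snhg16 were matched through RefSeq synonyms.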

Additional observations from a re-analysis of the deposited data

Results flagged for a closer look

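For 4 snoRNA hosts the KO to WT ratio had opposite signs in the pair of libraries read as male and the pair read as female, a difference that was not tested since each pair has 1 library per genotype. The log2 ratio was -0.27 (male) and 0.14 (female) for Gas5, -0.0098 and 0.65 for Snhg1, -0.40 and 0.17 for Snhg3, and -0.47 and 0.46 for Snhg12. The male pair of Snhg1 was nearly level, at 22.4 CPM in WT and 22.3 CPM in KO. All 4 hosts were higher in WT replicate 1 than in WT replicate 2.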

How the results depend on the processing

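The log2 fold changes of Malat1, Neat1, Kcnq1ot1, Snhg1 and Snhg6 kept their sign in all 15 alternatives, over ranges of -1.26 to -0.88, -1.96 to -1.33, -0.27 to -0.10, 0.10 to 0.56 and 0.48 to 0.80. Library size scaling moved the median of all genes from -0.01 to 0.15 and turned the sign of Gas5 (0.089), Snhg3 (0.042), Snhg8 (0.00011) and Snhg12 (0.095), each below that median. With 1 library left out, Gas5 ran from -0.245 to 0.14, Snhg3 from -0.251 to 0.049 and Snhg12 from -0.436 to 0.45, the highest each time without WT replicate 1; Snhg3 was also positive without KO replicate 2 (0.017). With limma-voom, Snhg12 was at 0.025. The number of members called lower was 2 with DESeq2, without a filter and with sex as a covariate, 0 with RLE factors, library size scaling or the robust option off, and 0 to 2 when 1 library was left out (2 without WT replicate 2, 0 without KO replicate 1 and 0 without KO replicate 2); no member was called higher in any of these 15. Over all genes, library size scaling called 604 higher and 186 lower, upper quartile factors 416 higher, DESeq2 949 and 973, no filter 862 and 770, sex as a covariate 696 and 713, and leave-one-out fits 0 to 1271 higher and 0 to 1019 lower, with 0 for each KO library left out, where edgeR's unadjusted p was under 0.05 for 1219 and 1010 genes in the higher and 1038 and 977 in the lower direction. These omissions leave fewer samples, and the lone sample of a genotype is then assumed to vary like the other genotype; for the other settings the cause was not tested. No paired analysis was possible because the labels give no replicate number shared between the genotypes; the fit with sex as a covariate, which blocks 1 WT with 1 KO library in each sex, used sex read from the counts. Counts under 150 limit Snhg3, Snhg6, Snhg12 and Kcnq1ot1.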

Other observations

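Gm37376, an unclassified gene annotated inside Malat1 on the other strand, had 0 and 38 counts in WT replicates 1 and 2 and 60 and 0 in KO replicates 1 and 2, so both libraries with counts were those read as female. Strand use in the counting is not given, so it is not known whether these reads came from Malat1. A link to sex was not tested. Gm17300, which overlaps Snhg3 on the other strand, had 71 and 99 counts in WT and 39 and 51 in KO. Outside the members, 3 genes of long noncoding type were called higher: 2810468N07Rik, Muc19 and Astx3, named after their values were seen. None was above 0.22 CPM on average in WT, and they stood at 2.75, 2.33 and 1.30 CPM on average in KO. The class rests on GENCODE M21 gene type alone, by which the mucin gene Muc19 counts as noncoding. H19 and Meg3, imprinted RNAs named for the same reason, were at 33.5 and 43.0 CPM in KO replicate 2, the library with the highest fibroblast markers, and at 6.55 to 8.47 and 11.5 to 14.7 CPM in the other libraries.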
